A study of Caenorhabditis elegans with 7 samples.

Results

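The yolk genes of the nematode Caenorhabditis elegans were described in early embryos of flp-21 mutants and wildtype: the 6 vitellogenin genes vit-1, vit-2, vit-3, vit-4, vit-5 and vit-6, which encode the yolk proteins, and rme-2, which encodes the receptor that takes yolk up into the oocyte. They were picked by gene symbol, 7 of the 46748 genes in the table of RNA sequencing counts, and all 7 passed the filter on low counts. There were 4 libraries of flp-21(ok889) mutants, numbered 11, 22, 29 and 30, and 3 of wildtype, named N2 after the laboratory strain, numbered 11, 22 and 30. All were of pre-gastrulation embryos of mothers that held only 1 or 2 eggs, with no treatment and no age of the mothers in the labels. The gene flp-21 encodes a neuropeptide of the FMRFamide-like family, and the series title asks how neurons control what mothers provide to their offspring. Values of single libraries are listed in the order of these numbers. Nothing in the labels ties a library to its own culture of worms, and the p-values therefore measure only how these libraries vary, which may be technical.

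Yolk proteins are made in the intestine of the adult hermaphrodite, secreted into the body cavity and taken up by growing oocytes through RME-2, a receptor of the LDL receptor family. The embryo receives the protein and consumes it during development. In textbook accounts the vit messages belong to the adult intestine and the rme-2 message to the germ line and its oocytes, so that the yolk and its receptor are transcribed in different tissues of the mother. The proteins of vit-1 to vit-5 are the large yolk proteins, and that of vit-6 is cut into a pair of smaller ones.

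Total counts ran from 34164612 to 53620276 per library, and a count of 0 was read as allowing up to 3 counts. The mutated gene could not check the labels at this depth, with 2, 1, 5 and 9 flp-21 counts among the mutant libraries, against 24, 2 and 6 among the wildtype libraries. Maternal messages that mark the early embryo, such as pos-1 and mex-5, were abundant in all 7 libraries, the 11 genes of that list adding up to 9973 to 12947 CPM (counts per 1000000 counts of a library) among mutants, against 4242 to 9494 CPM in wildtype. Of these 11 genes 4 rose and 0 fell, where 9.01% of all genes tested rose and 29.4% fell. The number that rose was 1 without mutant library 22 or 29 or wildtype library 11, and 2 without mutant library 11. It was 11 without wildtype library 30, 2 with upper quartile scaling and 7 with library size alone. None of 8 early zygotic genes passed, but their sums differed widely within wildtype. They were 74.8, 89.6, 90.5 and 109.99 CPM among the mutant libraries, against 36.3, 1.32 and 98.6 CPM among the wildtype libraries. Ribosomal RNA genes held 2.40% to 3.72% of the counts in the mutant and 3.99% to 13.3% in wildtype. In the mutant 10753 to 12129 genes had at least 10 counts, against 12511 to 15105 in wildtype. Both the 13.3% and the 12511 genes belong to wildtype library 30. The part of these differences in the results was not tested.

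The vitellogenin genes fell into groups by their gene models, given here in build WBcel235 with coordinates of the count table. Those of vit-1 to vit-5 lie on chromosome X within 4.33 Mb of each other, and vit-6 lies on chromosome IV from 8261145 to 8266463. The neighbours vit-4 (3558839 to 3563974) and vit-3 (3567397 to 3572549) are both on the minus strand, 3.42 kb apart, and vit-5 (3403471 to 3408605, plus strand) lies 150 kb from vit-4. The genes vit-2 (5101032 to 5106173) and vit-1 (7727901 to 7733308) stand alone on the plus strand. In the Ensembl annotation of that build, the coding exons of vit-3, vit-4 and vit-5 have the same 6 lengths, 864, 285, 3038, 229, 136 and 257 bases, and encode 1603 residues each. Those of vit-1 and vit-2 share 3 of 5 lengths (873, 285 and 247 bases) and differ in the third and the last exon, with 1616 and 1613 residues. The gene vit-6 shares no coding exon length with the other vitellogenin genes (95, 460, 3948, 270 and 180 bases, 1651 residues), and rme-2, on chromosome IV from 5469995 to 5473175, encodes 925 residues. Reads of the similar copies cannot be assigned to one copy with certainty, so values within vit-3 to vit-5 and within vit-1 and vit-2 are less certain than that of vit-6 or of the family.

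The vit-6 message was counted 6, 10064, 13522 and 116 times among the mutant libraries, against 480159, 435348 and 21003 times among the wildtype libraries. As CPM scaled by TMM, a method that corrects library totals for composition, these are 0.146, 272, 244 and 2.21 among mutants, against 10674, 12760.2 and 791 in wildtype. All mutant libraries lay below all wildtype libraries, yet neither group was homogeneous: mutant libraries 22 and 29 were the higher ones of their group, mutant libraries 11 and 30 had little of the message, and wildtype library 30 was far below the other wildtype libraries. The message of vit-2, the most abundant of the X-linked genes, had 3, 8348, 11188 and 85 counts among the mutant libraries, against 449580, 376050 and 20348 counts among the wildtype libraries. The same order of libraries held in vit-5, with 4, 5596, 8199 and 26 counts among mutants, against 298081, 272010 and 9476 in wildtype.

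The adjacent genes vit-3 and vit-4 had similar counts in each library. For vit-4 there were 3, 3962, 5746 and 14 counts among the mutant libraries, against 248033, 218622 and 7664 counts among the wildtype libraries. For vit-3 there were 2, 3839, 5548 and 12 counts among mutants, against 248643, 215867 and 5899 in wildtype. The message of vit-1 was the scarcest, with 0, 2264, 3206 and 9 counts among mutants, against 169245, 138750 and 5240 in wildtype, the 0 in mutant library 11 allowing up to 0.0730 CPM. Together the vitellogenins took 5.27e-05%, 0.0959%, 0.0914% and 0.000489% of all counts among the mutant libraries, against 4.41%, 4.84% and 0.192% among the wildtype libraries. By counts, vit-6 took ranks 11451, 779, 895 and 7665 of all genes in mutant libraries 11, 22, 29 and 30, against ranks 3, 3 and 288 in the wildtype libraries. In embryos collected in bulk, fewer cells of a type and less RNA per cell cannot be told apart.

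**Figure D1:**
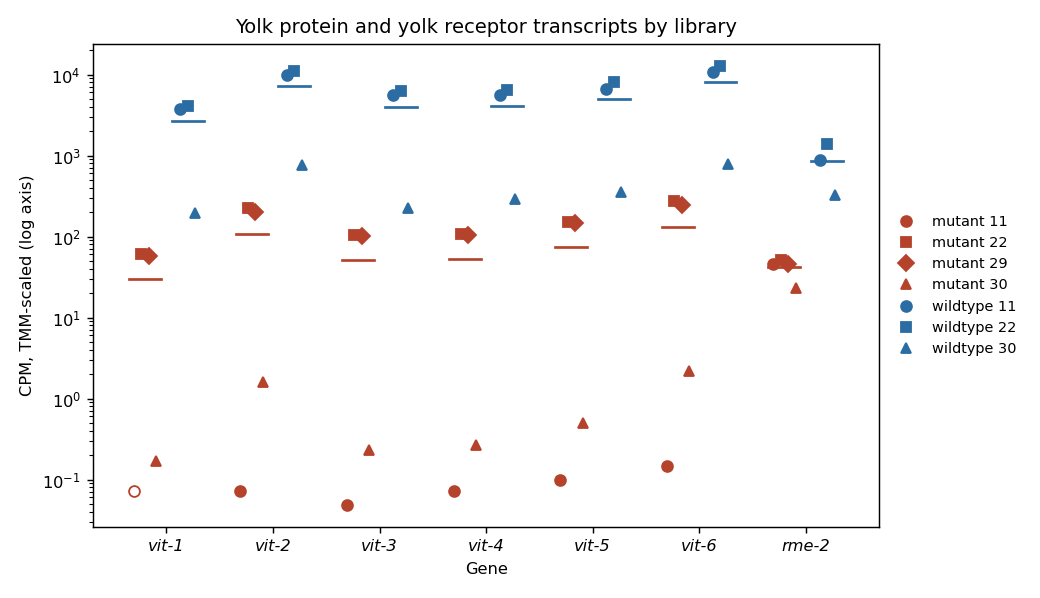
Level of each yolk gene in each library, in CPM on a log axis, with 1 point per library (4 mutant in red on the left, 3 wildtype in blue on the right of each gene) and a bar at the group mean; the open circle is a count of 0 drawn at the limit of 3 counts. The vitellogenins of mutant libraries 11 and 30 sit far below those of mutant libraries 22 and 29, while the rme-2 points of the mutant lie between 22.95 and 51.7 CPM.

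All 6 vitellogenin genes fell in the mutant, as did rme-2, against a background in which 38.4% of the 13035 genes tested changed, 29.4% falling and 9.01% rising. In edgeR's quasi-likelihood test across all genes, vit-6 averaged 129.6 ± 149 CPM in the mutant (SD, n = 4) and 8075 ± 6394 CPM in wildtype (n = 3), a log2 fold change of -5.96 (SE 1.98, adjusted p = 0.0395). The values of vit-2 were 107 ± 123 CPM among mutants, against 7261 ± 5648 CPM in wildtype (log2 fold change -6.08, SE 2.02, edgeR adjusted p = 0.0396). For vit-5 they were 74.9 ± 86.2 CPM in mutant libraries and 4985 ± 4064 CPM in wildtype (log2 fold change -6.06, edgeR adjusted p = 0.0439). The log2 fold changes of vit-1, vit-3 and vit-4 were -6.49, -6.30 and -6.27 (edgeR adjusted p = 0.0389, 0.0431 and 0.0402). The median log2 fold change over all genes tested was -0.21. For each of the 6 genes the SD exceeded the mean in the mutant, and the adjusted p-values lay close to the threshold of 0.05.

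The calls of the 6 vitellogenins rested on which libraries were in the fit. None of the 6 passed in edgeR without mutant library 22, without mutant library 29 or without any 1 of the wildtype libraries (adjusted p from 0.0521 to 0.112, with an unadjusted p under 0.05 for all 6 in each of these fits and log2 fold changes from -7.10 to -5.47), and 2 passed without mutant library 30. Without mutant libraries 22 and 29 all 6 passed with log2 fold changes from -14.75 to -12.68. These are the mutant libraries with the most vitellogenin counts, so leaving them out lowers the mutant level by construction. Without mutant libraries 11 and 30, an alternative chosen after seeing the data, all 6 passed with log2 fold changes from -5.38 to -4.86. Without wildtype libraries 11 and 22, which left wildtype library 30 alone, assumed to vary like the mutant libraries, the log2 fold changes were -2.68 to -1.97 and none passed (adjusted p from 0.462 to 0.613, none with an unadjusted p under 0.05).

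**Figure D2:**
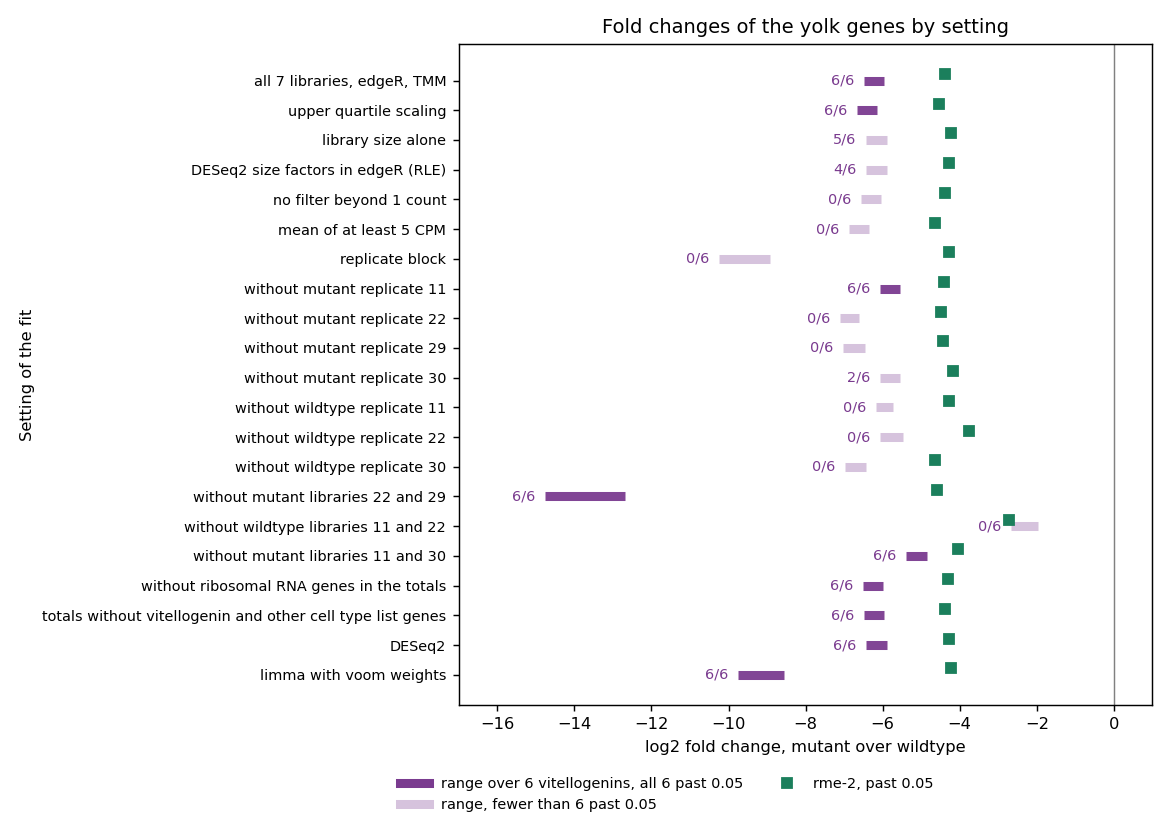
Log2 fold changes, mutant over wildtype, under each setting of the fit, as a bar from the lowest to the highest of the 6 vitellogenins and a square for rme-2; the fraction beside each bar is how many of the 6 passed an adjusted p of 0.05. Every bar and square lies below 0, the squares pass in all settings shown, and the bars pass in full in 9 of the 21.

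For each of the 7 genes all mutant libraries lay below all wildtype libraries, a pattern shown by 30.5% of the genes tested. The gap between the groups was narrow for the vitellogenins relative to their spread. The lowest wildtype level, that of library 30, was 2.14 times the highest mutant level for vit-3, 2.91 times for vit-6 and 3.40 times for vit-2. Within the mutant the highest level of vit-6 was 1862 times the lowest, and within wildtype 16.1 times.

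Few genes varied as much between the mutant libraries. By the SD of log2(CPM + 0.5) over the 4 mutant libraries, vit-6 ranked first of the 13035 genes tested (SD 4.47), followed by vit-2, vit-5, vit-3 and vit-4 (SD 4.46, 4.40, 4.24 and 4.23), and vit-1 ranked 7 (SD 3.87). The median gene had an SD of 0.34. The order depends on the added 0.5 CPM, which is above the 0.146 CPM of vit-6 in mutant library 11. On log2 CPM minus the gene's own mean, vit-6 ran from -9.97 to 0.78 over the mutant libraries. On that scale vit-1, from -11.30 to 1.01, and the collagen gene col-119, from -10.97 to 1.42, ran wider. Among the 3 wildtype libraries the vitellogenins ranked from 52 (vit-3, SD 2.73) to 174 (vit-2, SD 2.18), where the median gene had 0.65. The receptor gene rme-2 took rank 3530 in the mutant (SD 0.53) and 2523 in wildtype (SD 1.07).

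Per kilobase of exon, the order of the family was the same in 5 of the 7 libraries: vit-6, vit-2, vit-5, vit-4, vit-3 and vit-1, from high to low. In wildtype library 11 vit-3 and vit-4 changed places, and in mutant library 11 all 6 genes had 6 counts or fewer. Mean levels were 25.5 ± 29.3, 21.7 ± 24.9 and 15.4 ± 17.7 RPKM in the mutant (SD, n = 4) and 1590 ± 1259, 1467 ± 1141 and 1023 ± 834 RPKM in wildtype (n = 3) for vit-6, vit-2 and vit-5. They were 10.8 ± 12.5, 10.5 ± 12.04 and 5.71 ± 6.58 RPKM among mutants, against 835 ± 678, 825 ± 679.6 and 513 ± 412.5 RPKM in wildtype for vit-4, vit-3 and vit-1. Neighbours in this order differed by less than their spread over the libraries of a group. Within a library the most abundant gene exceeded the least by 4.56, 4.33 and 13.2 times in mutant libraries 22, 29 and 30 and by 2.91, 3.22 and 4.12 times among the wildtype libraries. The mean level of rme-2 was 14.3 ± 4.39 RPKM in the mutant and 298 ± 182 RPKM in wildtype. Its place among the vitellogenins differed between libraries. At 15.7 and 7.92 RPKM in mutant libraries 11 and 30 it lay above all 6, the highest of which, vit-6, had 0.0287 and 0.435 RPKM there. In mutant libraries 22 and 29 it lay above vit-1 alone. In wildtype library 30, at 112 RPKM, it lay above vit-1, vit-3, vit-4 and vit-5, and in wildtype libraries 11 and 22, at 305 and 476 RPKM, below all 6.

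The makeup of the vitellogenin counts is a measure that needs no scaling between libraries. The share of vit-6 among them was 33.3%, 29.5%, 28.5% and 44.3% among the mutant libraries, against 25.4%, 26.3% and 30.2% among the wildtype libraries. The first of these rests on 18 counts, with an exact 95% binomial interval from 13.3% to 59.01%, and that of mutant library 30 on 262 counts, with an interval from 38.2% to 50.5%. Such intervals cover counting error only. Mean shares of vit-6 were 33.9% ± 7.21 in the mutant (SD, n = 4) and 27.3% ± 2.55 in wildtype (n = 3), a difference that did not pass (two-sided exact permutation test over 35 splits, p = 0.171, adjusted over 6 genes p = 0.514). The share of vit-1 was 0%, 6.64%, 6.76% and 3.44% in mutant libraries 11, 22, 29 and 30, against 8.94%, 8.38% and 7.53% among the wildtype libraries, a difference that did not pass (exact permutation p = 0.0857, adjusted over 6 genes p = 0.514). The 0% is 0 of 18 counts, which allows a share of up to 18.5% (exact 95% interval) and so covers the wildtype shares. The shares of vit-2 to vit-5 differed between the group means, mutant minus wildtype, by -1.88 to 1.21 percentage points (exact permutation p = 0.514 to 0.886, adjusted p = 0.857 to 0.886). The smallest p that this design allows is 0.0286, and a p that misses the threshold does not show that the makeup was the same. After adjustment over 6 genes, a share that reached this smallest p alone could not pass either. Several shares would have to reach it together.

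**Figure D3:**
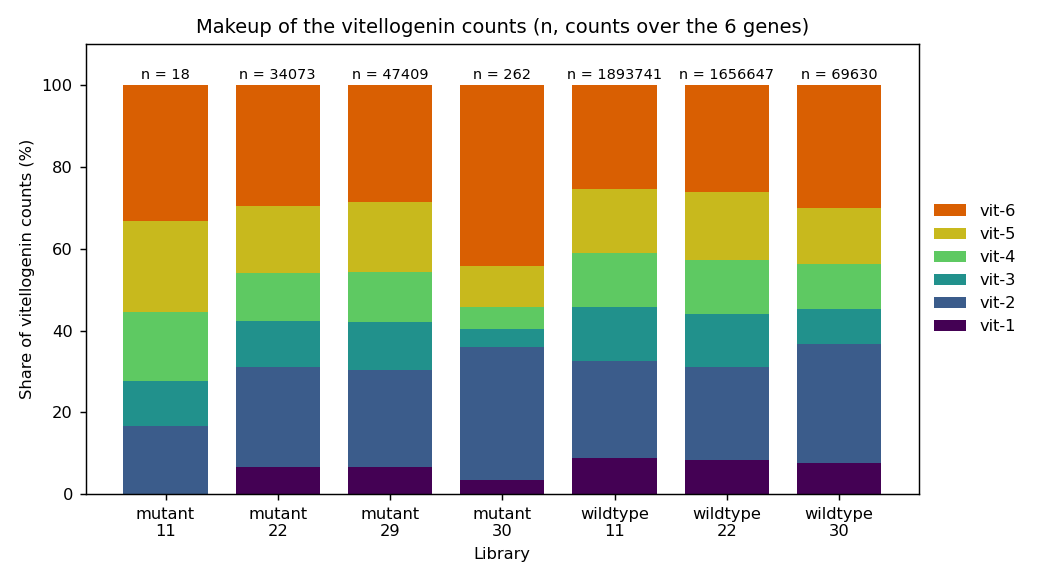
Share of each vitellogenin gene among the counts of the 6 genes, as stacked bars in percent for each library, mutant left and wildtype right, with the number of counts (n) above each bar. The bars of mutant libraries 22 and 29 differ from those of wildtype libraries 11 and 22 by a few percentage points per gene, although their totals are 34073 and 47409 counts against 1893741 and 1656647.

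The receptor gene rme-2 fell more evenly. It had 1876, 1916, 2547 and 1205 counts among the mutant libraries, against 39729, 47074 and 8631 among the wildtype libraries. As scaled levels these are 45.6, 51.7, 46.0 and 22.95 CPM among mutants, against 883, 1379.8 and 325 CPM in wildtype. The mutant libraries were close together, with library 30 the lowest, and all lay below wildtype library 30, which was again the lowest of its group. Its log2 fold change was -4.38 (SE 0.53, edgeR adjusted p = 4.28e-04), a level 20.7-fold lower, with 41.6 ± 12.7 CPM in mutant libraries (SD, n = 4) against 863 ± 527.6 CPM in wildtype libraries (n = 3). The call held in all 20 alternatives, with log2 fold changes from -4.64 to -2.73 and adjusted p-values up to 0.0217, the weakest being the fit with wildtype library 30 alone.

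The ratio of yolk to receptor messages varied between libraries. There were 0.00959, 17.8, 18.6 and 0.217 vitellogenin counts for each rme-2 count among the mutant libraries, against 47.7, 35.2 and 8.07 among the wildtype libraries. Mutant libraries 22 and 29 thus lay above wildtype library 30 in this ratio and below the other wildtype libraries. The groups overlapped.

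The gene whose profile was most like that of rme-2 was cbd-1, which encodes a chitin-binding protein of the eggshell. The root mean square difference between their log2 CPM, each centred on its own mean over the 7 libraries, was 0.17, where the median of 7765 genes was 2.46. It had 61.2, 100.2, 88.03 and 39.6 CPM among the mutant libraries, against 1523, 2514 and 499 CPM among the wildtype libraries. The next were T08B6.9 and gfat-1, which encodes an enzyme of the hexosamine pathway, at 0.26 each. The genes closest to vit-6 were tnt-2, a troponin T gene of muscle, let-2, a basement membrane collagen gene, and col-124, a collagen gene, at 0.90, 0.98 and 1.01. Those closest to vit-2 were the collagen gene col-119, tnt-2 and col-124, at 1.01, 1.06 and 1.06, against 0.26 between vit-2 and vit-6 and 4.29 between vit-2 and rme-2. All 7 libraries enter these distances, and they describe likeness only.

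**Figure D4:**
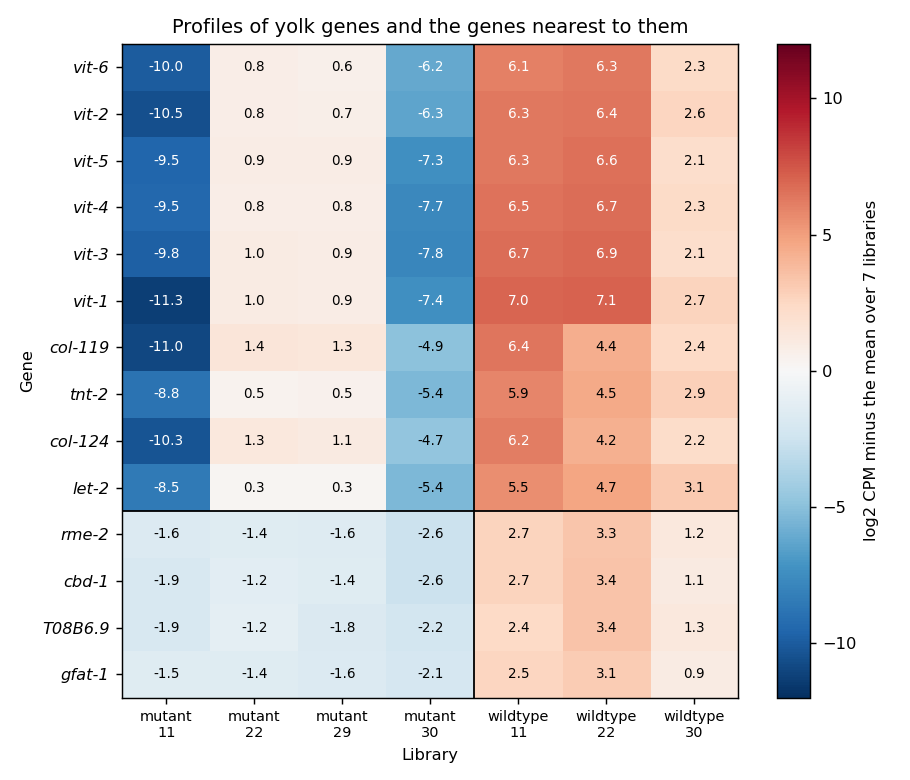
Log2 CPM of each yolk gene and of the genes nearest to vit-2, vit-6 and rme-2, minus the gene's own mean over the 7 libraries, as numbers and colour, with mutant libraries left of the vertical line and wildtype right. The 6 vitellogenins and the 4 collagen and troponin genes nearest to vit-2 or vit-6 are above the horizontal line. These 4 were lower in wildtype library 22 than in wildtype library 11 (col-119 at 4.37 and 6.39), where the vitellogenins were higher (vit-6 at 6.33 and 6.07). Below the line rme-2 stands with cbd-1, T08B6.9 and gfat-1, the genes nearest to it.

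Relative to the sum of an oocyte and eggshell list, rme-2 was lower in each mutant library than in any wildtype library, but not relative to each gene of that list. It amounted to 1.52%, 1.24%, 1.17% and 0.712% of the summed level of 12 oocyte and eggshell genes among the mutant libraries, against 7.65%, 8.86% and 3.78% among the wildtype libraries. The log2 ratio averaged -6.48 ± 0.46 in the mutant (SD, n = 4) and -3.98 ± 0.66 in wildtype (n = 3), a difference of -2.50 with no overlap (two-sided exact permutation p = 0.0286, the smallest that 35 splits can give, and 0.0571 adjusted over 2 ratios, which did not pass). The other ratio, of vit-6 to the other vitellogenins, had p = 0.171 in the same permutation test. Beside that value even the smallest p could not pass after adjustment. Of the 12 genes of the oocyte and eggshell list 8 fell and 0 rose (1 rose with library size alone and 2 without wildtype library 30), with a median log2 fold change of -3.53. The 8 that fell are 66.7% of the list, where 29.4% of all genes tested fell and 9.01% rose. The eggshell proteoglycan genes cpg-3 and cpg-2 had 11.5 ± 1.83 and 159 ± 37.9 CPM among mutants, against 785 ± 401 and 3041 ± 1238 CPM in wildtype (edgeR adjusted p = 6.23e-05 and 1.68e-04). The sum in the mutant was mostly mbk-2, puf-5, oma-1 and oma-2, which did not pass. The log2 fold changes of cpg-3, chs-1 and cbd-1, at -6.09, -5.33 and -4.39, were as low as that of rme-2 or lower, as were those of the eggshell layer genes perm-4 and perm-2, named after their values were seen, at -7.71 and -7.02. The oocyte maturation genes oma-1 and oma-2, with log2 fold changes of 0.41 and -0.31, did not pass.

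Of 11 tested genes known to regulate vitellogenin transcription in the mother, 3 fell, 3 rose and 5 did not pass, with a median log2 fold change of 0.12. The 3 that fell are 27.3% of the list, close to the 29.4% of all genes tested that fell, where 9.01% rose. The transcription factor gene pqm-1 had 0.0487, 0.0810, 0.0181 and 0.0190 CPM among the mutant libraries, against 8.603, 5.01 and 1.62 CPM among the wildtype libraries. Its log2 fold change was -6.90 (edgeR adjusted p = 4.94e-04). The size of this fall is uncertain, since the mutant levels rest on 2, 3, 1 and 1 counts. The intestinal GATA factor gene elt-2 had 0.139 ± 0.0940 CPM among mutants, against 5.38 ± 4.37 CPM in wildtype (log2 fold change -5.26, edgeR adjusted p = 0.00520). The rictor gene rict-1, of the TORC2 kinase complex, rose to 301 ± 70.8 CPM in the mutant against 97.1 ± 13.4 CPM in wildtype (edgeR adjusted p = 0.00396), and the insulin receptor gene daf-2 had a log2 fold change of 2.78 (edgeR adjusted p = 0.00119). The Mediator gene mdt-15 also rose and the kinase gene sgk-1 also fell, both named after their values were seen and with adjusted p-values of 0.0390 and 0.0420. The gene unc-62, a homeobox factor that binds vit promoters, did not pass (log2 fold change 0.12). The gene ceh-60 stayed under the count filter and was not tested. It had 1, 1, 5 and 0 counts among the mutant libraries, against 134, 121 and 5 among the wildtype libraries. With 1 library left out, 2 to 5 fell and 2 to 6 rose, the highest numbers without wildtype library 30.

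The machinery of endocytosis, through which oocytes take up yolk once RME-2 has bound it, was described by 27 genes, of which 4 fell, 5 rose and 18 did not pass, with a median log2 fold change of 0.37. The 4 that fell are 14.8% of the list, where 29.4% of all genes tested fell and 9.01% rose. The early endosome GTPase gene rab-5 had 11.3 ± 1.35 CPM among mutants, against 90.6 ± 40.9 CPM in wildtype (log2 fold change -3.002, edgeR adjusted p = 6.05e-04). The late endosome gene rab-7 had 5.12 ± 1.89 CPM among mutants, against 80.9 ± 20.7 CPM in wildtype (log2 fold change -3.98). The recycling gene rme-1 had 16.5 ± 5.65 CPM among mutants, against 185 ± 122.3 CPM in wildtype (log2 fold change -3.49). The sorting nexin gene snx-3 had a log2 fold change of -1.50. The genes that rose, named after their values were seen, were rab-10, pkc-3, par-3, cup-5 and num-1, with log2 fold changes from 0.89 to 1.28. That number depended on the fit, being 2 with upper quartile scaling, 10 with library size alone and 0 to 13 with 1 library left out (0 without mutant library 29, 1 without mutant library 11 or 22, 2 without wildtype library 11 and 13 without wildtype library 30). The clathrin heavy chain gene chc-1 (log2 fold change 0.37) did not pass.

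Genes of lipoprotein assembly, related receptors and yolk processing fell in 4 of 7 cases, and 3 did not pass, with a median log2 fold change of -3.78. The 4 that fell are 57.1% of the list, where 29.4% of all genes tested fell and 9.01% rose. The cathepsin L gene cpl-1, whose product processes yolk in the embryo, had 0.925, 26.0, 24.7 and 1.45 CPM among the mutant libraries, against 1579, 1383 and 299 CPM among the wildtype libraries (log2 fold change -6.36, edgeR adjusted p = 0.00350). The gene dsc-4, which encodes the microsomal triglyceride transfer protein that loads lipoproteins, had 0.796 ± 0.658 CPM among mutants, against 34.8 ± 18.6 CPM in wildtype (log2 fold change -5.45). The egg surface genes egg-1 and egg-2, which encode receptors with LDL receptor repeats as RME-2 does, had log2 fold changes of -4.69 and -3.78. The LDL receptor-related genes lrp-1 and lrp-2, at -0.12 and 1.38, did not pass.

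Markers of adult tissues also summed to lower levels in the mutant. The sums of the intestine, cuticle and muscle lists ranked the 7 libraries as the vitellogenins did, except that wildtype library 11 lay above wildtype library 22. The sperm list ranked the libraries of both groups otherwise. The vitellogenins had 42100, 48557 and 2623 CPM in wildtype libraries 11, 22 and 30. Of all genes tested 29.4% fell. A list of 15 adult intestine genes added up to 1.05, 94.7, 77.005 and 4.78 CPM among the mutant libraries, against 5542, 4092 and 3442 CPM among the wildtype libraries. All 14 of its tested genes fell (6 without wildtype libraries 11 and 22), with a median log2 fold change of -6.50, and 6 of the 15 had no count in mutant library 11. Relative to that list, the vitellogenins stood at 0.419, 9.72, 11.11 and 1.04 times its level among the mutant libraries, against 7.60, 11.9 and 0.762 times among the wildtype libraries. The ranges of the groups overlapped, with mutant libraries 22 and 29 beside wildtype libraries 11 and 22, and wildtype library 30 beside mutant libraries 11 and 30.

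Other adult lists were lower in the mutant as well, again where 29.4% of all genes tested fell. The 7 adult cuticle genes summed to 0.0243, 306, 265 and 7.12 CPM among the mutant libraries, against 10935, 2360 and 1449 CPM among the wildtype libraries, and 3 of the 4 tested fell. That count was 0 without mutant library 22, 29 or 30 or wildtype library 11 or 22, and 1 without wildtype library 30, and it was 0 with library size alone or with DESeq2 size factors. The 7 body wall muscle genes summed to 191 to 423 CPM among mutants, against 1555 to 4416 CPM in wildtype, and all 7 fell (3 without wildtype library 11). The actin gene act-4 made up most of the mutant sums, with 189, 329.8, 288 and 232 CPM among the mutant libraries and a log2 fold change of -1.70, where the other 6 genes had -5.74 to -3.59. The sperm genes, 12 table entries for 10 symbols, summed to 40.6 to 97.003 CPM among mutants, against 1150.2 to 1907 CPM in wildtype, and all 11 tested fell. The median log2 fold changes of the cuticle, muscle and sperm lists were -5.14, -5.03 and -4.08. In the intestine list ftn-1 was at 0 in all mutant libraries, and 6 of the 7 cuticle genes were at 0 in mutant library 11. The part of these markers in the fall of the yolk genes was not tested.

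**Figure D5:**
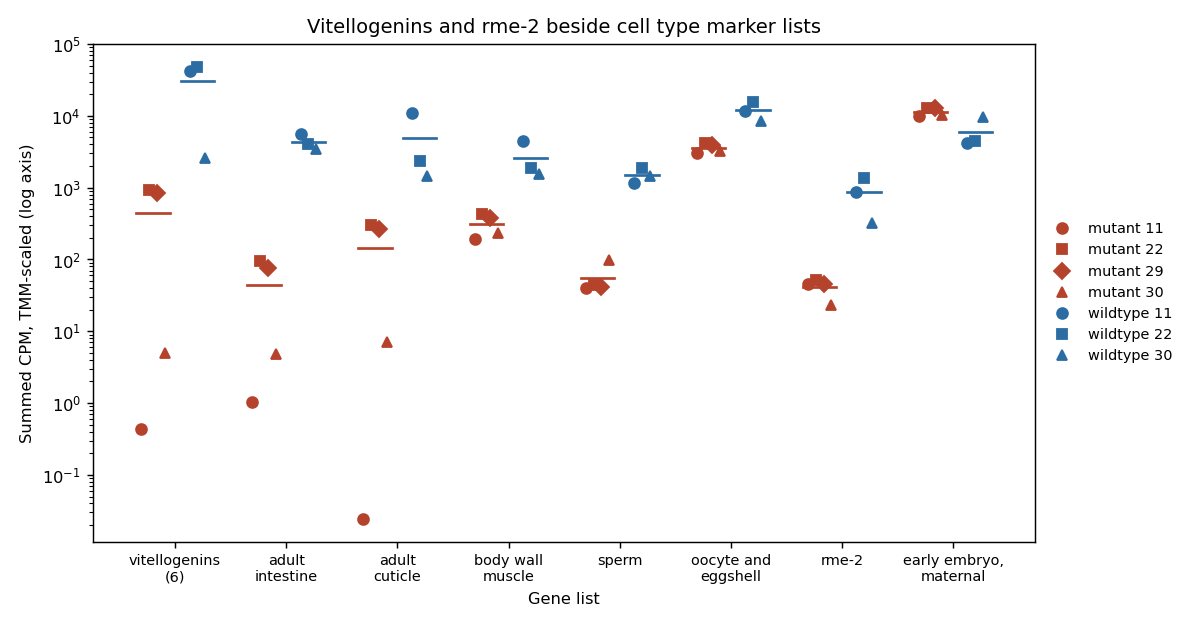
Summed level of the 6 vitellogenins, of each marker list and of rme-2 alone, in CPM on a log axis, with 1 point per library (mutant in red on the left, wildtype in blue on the right) and a bar at the group mean. Over the mutant libraries the vitellogenins ran from 0.438 to 920 CPM, the adult intestine list from 1.05 to 94.7 CPM and the early embryo list from 9973 to 12947 CPM, each with library 22 the highest and library 11 the lowest.

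The genes beside the vitellogenins mostly had few counts or did not pass. The genes that flank vit-5, cht-1 and unc-78, did not pass at log2 fold changes of 0.01 and 0.09, nor did rgs-7, beside vit-4, at 1.21. Beside vit-2 and vit-6 the flanking genes had at most 14 counts in any library. The exception was spp-14, a saposin-like gene 1513 bases from vit-1, with 2, 94, 160 and 17 counts among the mutant libraries, against 8679, 3905 and 1523 among the wildtype libraries (log2 fold change -6.39, edgeR adjusted p = 0.00195). On the other side of vit-1, 31 bases away, set-12 did not pass (log2 fold change 0.72). Of the genes that flank rme-2, T11F8.4 had 0.740 to 1.5999 CPM among mutants, against 4.07 to 9.17 CPM in wildtype (log2 fold change -2.54, edgeR adjusted p = 0.00589). The pseudogene WBGene00021792, on its other side, had 0, 0, 2 and 0 counts among mutants, against 47, 62 and 33 in wildtype.

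The authors' deposited table of their DESeq2 comparison, which lists 3791 genes, holds all 7. Of the genes listed 3075 were lower and 716 higher in the mutant. The largest DESeq2 adjusted p in it is 0.0497, and small log2 fold changes are absent. Presence and rank in this table are therefore relative to changed genes only, not to all genes. It gives log2 fold changes from -6.51 for vit-1 to -5.98 for vit-6 with adjusted p-values from 0.00544 to 0.0129, and -4.37 with 5.37e-12 for rme-2. In the authors' deposited table the mean normalised counts of vit-6 and vit-2, 147611 and 132454, take ranks 4 and 5 of the genes listed, and rme-2 takes rank 147.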

How the data were processed

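The authors deposited raw counts of reads per gene, made with featureCounts 1.6.4 on exons per gene identifier with no option for strand or multiply mapped reads, per the file headers. The submitters' processing notes name BWA, DESeq2 and WBcel235. Without strand, reads of overlapping genes cannot be told apart. BWA does not split reads over introns, so reads on junctions can go uncounted. The authors also deposited their DESeq2 table, with log2 fold changes and their errors, the Wald score, p-values, and the mean signal of normalised counts. No source used here gives its DESeq2 version. No genome sequence was used here, so no promoter was searched. Gene models came from Ensembl release 115, which is of the same build and held 46449 of the 46748 identifiers.

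The test was edgeR 4.0.16 (quasi-likelihood, robust, TMM, filterByExpr, genotype only, in R 4.3.3), run on 13035 genes in 7 libraries with Benjamini-Hochberg adjustment over all of them. It was also run on simulated counts, judged only on whether large changes were found, not on false calls. SE is the absolute log2 fold change over the square root of F. CPM and RPKM use TMM-scaled totals. Shares and log2 ratios (0.5 counts added) were tested by exact permutation over 35 splits. Alternatives used DESeq2 1.42.0, limma 3.58.1, other scalings, filters and libraries. The members, gene lists and tests were chosen with earlier results of these data known. Named genes are the 7 members, up to 4 called genes per list with the smallest p and at least 1 CPM, the flanking genes, and the 3 genes nearest in profile to vit-2, vit-6 and rme-2 with at least 5 CPM. Genes named as examples that did not pass, and those said to be, were chosen after their values were seen.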

Additional observations from a re-analysis of the deposited data

Results flagged for a closer look

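The summed level of the sperm list in the mutant libraries was marked because library 30, at 97.003 CPM, stood apart from libraries 11, 22 and 29, at 40.6, 44.6 and 41.9 CPM: its gap to the nearest was 0.93 of the group's range, above Dixon's 95% critical value for 4 samples. The share of vit-3 among the vitellogenin counts was marked in the same way, since mutant library 30, at 4.58% (12 of 262 counts, exact 95% interval from 2.39% to 7.86%), lay below libraries 11, 22 and 29, at 11.11%, 11.3% and 11.7%, with a gap of 0.917 of the range. Among 26 such checks 2 were marked, and chance marks about 1 in 20.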

How the results depend on the processing

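The call of rme-2 and the direction of all 7 yolk genes held in all 20 alternatives, while the vitellogenin calls were lost in many. All 7 yolk genes passed in the main fit, with upper quartile scaling, with DESeq2, with limma, without ribosomal RNA genes in the totals, with totals that left out vitellogenin and other cell type genes, without mutant library 11, without mutant libraries 22 and 29 and, chosen after seeing the data, without mutant libraries 11 and 30. Leaving out mutant libraries 22 and 29, the higher ones of their group, lowers the vitellogenin level of the mutant by construction. With library size alone 6 passed and with DESeq2 size factors in edgeR 5 passed. Only rme-2, that is 1 of the 7, passed with no filter beyond 1 count, with a mean of at least 5 CPM, with the replicate block and without wildtype libraries 11 and 22, and with 1 library left out 1 to 7 passed. The vitellogenins had adjusted p-values from 0.163 to 0.174 with no filter (log2 fold changes from -6.57 to -6.05) and from 0.0583 to 0.0643 with at least 5 CPM (-6.88 to -6.35). Of all genes, 5004 changed, against 2215 with at least 5 CPM (7747 tested), 3292 without mutant libraries 22 and 29 and 2850 without wildtype libraries 11 and 22, and 3804 to 7282 with 1 library left out. The median log2 fold change of all genes was -0.42 with upper quartile scaling and 0.01 with library size alone.

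The numbers in the labels are not shown to pair the libraries. Deviations from the group means correlated at -0.19, 0.06 and 0.42 between same-numbered libraries 11, 22 and 30, and mutant libraries 11 and 22 correlated best with another number. With the number as a block, 4371 genes changed and the vitellogenins had log2 fold changes from -10.25 to -8.93 (edgeR adjusted p from 0.107 to 0.138). The log2 ratio of rme-2 to the oocyte list differed by -2.88 to -2.26 with 1 library left out (exact permutation p = 0.0667 or 0.1, the smallest those designs allow). No share of a vitellogenin passed per kilobase of exon. This is the only alternative for shares whose design could pass, and after adjustment only if several shares reached the smallest p together. The cause of the lost calls was not tested. Shares within the family rest on few counts in mutant libraries 11 and 30, 18 and 262, although total counts there were 34164612 and 53620276.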
